A study of Mus musculus with 30 samples.

Results

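Class I phosphoinositide 3-kinase (PI3K) subunits and the inositol lipid phosphatase Inpp5d were examined in RNA-seq libraries of tdTomato-tagged interneurons sorted from the medial prefrontal cortex (mPFC) of mice. The genes were taken by symbol and not by a measured value, but the list was chosen with earlier results of these data known. It holds the catalytic subunits Pik3ca, Pik3cb, Pik3cd and Pik3cg, the class IA regulatory subunits Pik3r1, Pik3r2 and Pik3r3, the class IB regulatory subunit Pik3r5, and Inpp5d. These are 9 of the 23993 genes in the expression table. All 9 had a mean above 0.4 FPKM, fragments scaled by gene length and by library, in every comparison, the limit for a gene to be tested.

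PI3Ks phosphorylate a lipid of the inner plasma membrane, and the product recruits kinases such as Akt and Btk. A class IA enzyme is a catalytic subunit (p110α, p110β or p110δ, from Pik3ca, Pik3cb and Pik3cd) held by a regulatory subunit that binds phosphorylated receptors and docking proteins. The class IB enzyme, p110γ from Pik3cg, is held by p101 (Pik3r5) or p84 (Pik3r6) and answers to G-protein-coupled receptors. Inpp5d encodes SHIP1, which removes the 5-phosphate from the PI3K product. Pik3ca and Pik3cb are widely expressed, whereas Pik3cd, Pik3cg, Pik3r5 and Inpp5d are best known from blood cells, and in the brain from microglia.

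Mice were heterozygous for Sst-Cre or Pvalb-Cre and for a Cre-dependent tdTomato reporter, labelled C57BL/6, and 6 to 12 weeks old by the study's methods. The Cre is driven from the Sst or Pvalb gene, and the reporter stays on in any cell in which that gene was once active. Sst mice comprised 7 female controls, 7 male controls and 3 males after 14 days of chronic unpredictable stress (CUS), and Pvalb mice comprised 7 male controls. SST0-M with SST1-M, and PV0-M with PV2-M, differed from each other far less than any other pair of their group, so each pair was averaged and counted as 1 sample, which left 22 samples. Male Sst controls had 2 kinds of title, numbered ones such as SST3-M (3 samples) and coded ones such as SS04031R (3 samples). All 3 CUS samples had coded titles, no Sst female or Pvalb sample did, and what the code stands for is not given. Whether samples came from separate mice is not given either, so p-values measure the spread between these samples.

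The libraries did not look like pure interneurons. Summed over 10 interneuron markers, samples held 6.17 to 73.4 FPKM, with Sst at 0 in SS04031R, Pvalb at 0 in 10 samples, and Gad1 and Gad2 no higher than 2.06 and 4.33 FPKM. Summed over 11 microglia markers, they held 2643 to 4708 FPKM in Sst females, 5278 to 8908 in numbered males, 2981 to 6563 in coded males, 2403 to 2788 after CUS and 5143 to 7618 in Pvalb males. Astrocyte markers summed to 514 to 1731 FPKM and oligodendrocyte markers to 245 to 1758 FPKM, and endothelial markers to 11.4 to 203 FPKM. Small nucleolar RNAs took 53.5% to 75.7% of the summed FPKM in coded libraries and 1.87% to 8.29% in numbered ones. Xist, expressed from the inactive X chromosome, stood at 300.2 to 333 FPKM in PV1-M, PV4-M and PV5-M, against their male label. In sorted pools, fewer cells of a type and less RNA per cell cannot be told apart.

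Promoter windows of all 9 members were read for a motif and for base composition. RefSeq windows from 250 bases before to 50 after a start site (GRCm38.p6) were searched on both strands for the hexamer GAGGAA, the purine-rich form bound by the myeloid ETS factor PU.1. On the opposite strand the hexamer reads TTCCTC. It was found in 28.3% of 32851 mouse windows and in 5 of the 15 member windows, which belong to 3 of the 9 members (Inpp5d, Pik3cg and Pik3r3). The Pik3cg windows overlap and hold the same matches, so these sites were counted in each of them. The other members known mainly from blood cells, Pik3cd with 3 windows and Pik3r5, had none, and Pik3r3 had a match in each orientation in separate windows. The windows shown were chosen with these matches known: Inpp5d and Pik3cg hold the hexamer in both orientations within 1 window, and Pik3r2 is a window rich in CpG without it. The capitals mark the hexamer.
Inpp5d, chr1:87620062-87620361, plus strand: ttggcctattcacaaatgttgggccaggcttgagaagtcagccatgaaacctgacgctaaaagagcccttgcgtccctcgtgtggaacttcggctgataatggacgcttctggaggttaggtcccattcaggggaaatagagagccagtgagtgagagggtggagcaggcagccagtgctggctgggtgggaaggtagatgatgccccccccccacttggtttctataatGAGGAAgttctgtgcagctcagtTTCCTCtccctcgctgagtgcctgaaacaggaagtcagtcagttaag
Pik3cg, chr12:32208610-32208909, minus strand: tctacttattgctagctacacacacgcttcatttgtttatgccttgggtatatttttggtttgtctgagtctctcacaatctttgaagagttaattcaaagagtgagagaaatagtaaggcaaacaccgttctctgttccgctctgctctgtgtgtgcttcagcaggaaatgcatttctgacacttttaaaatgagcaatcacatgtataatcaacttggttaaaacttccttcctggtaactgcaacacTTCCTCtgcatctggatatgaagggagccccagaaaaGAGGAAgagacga
Pik3r2, chr8:70776663-70776962, minus strand: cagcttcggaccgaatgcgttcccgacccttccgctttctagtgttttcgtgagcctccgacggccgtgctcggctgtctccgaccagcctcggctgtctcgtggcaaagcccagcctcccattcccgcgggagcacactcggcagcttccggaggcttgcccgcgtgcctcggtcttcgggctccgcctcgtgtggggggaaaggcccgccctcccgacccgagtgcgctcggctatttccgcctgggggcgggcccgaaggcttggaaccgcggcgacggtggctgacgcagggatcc
The Pik3r2 window held 36 CpG dinucleotides and no match, against 6 in Inpp5d, 4 in Pik3cg and a median of 7 over all windows. It was not alone in this, since the Pik3cb window held 44 CpG and 1 Pik3r1 window 34. These letters are a description of the windows, and binding was not measured.

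Inpp5d and Pik3r1 were the most abundant members. FPKM is scaled by gene length, so levels can be compared between genes. Over the 22 samples the mean was 77.7 ± 36.7 FPKM (SD) for Inpp5d and 58.8 ± 9.64 FPKM for Pik3r1, the regulatory subunit p85α. Inpp5d lay above Pik3r1 in 15 of 22 samples, and in 6 of 7 Sst females the order was the other way. Pik3r5 (35.3 ± 15.6 FPKM), Pik3cg (32.1 ± 11.7 FPKM) and Pik3cd (21.7 ± 10.4 FPKM) followed. Pik3r5 exceeded Pik3cg in 14 of 22 samples, so this pair had no fixed order. Pik3r2, Pik3r3, Pik3cb and Pik3ca had means between 9.34 and 11.2 FPKM, and neighbours among them did not differ beyond their spread.

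The members differed widely in how much they varied. Pik3r1 ranged from 46.3 to 86.1 FPKM, a ratio of 1.86 between the highest and lowest sample. Pik3ca ranged from 6.45 to 11.4 FPKM, a ratio of 1.76. Pik3r3 (p55γ) spanned a ratio of 19.9, from 2.76 FPKM in SS04031R to 54.8 FPKM in the averaged SST0-M and SST1-M. Pik3cb spanned 7.08, with the same averaged pair at the top (39.6 FPKM). Pik3r2 (p85β) spanned 7.90, with all 3 CUS samples and all 3 coded controls above every other sample. On the log2(FPKM + 1) scale the SD over samples was 0.22 for Pik3r1, 0.24 for Pik3ca and 0.97 for Pik3r2.

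**Figure D1:**
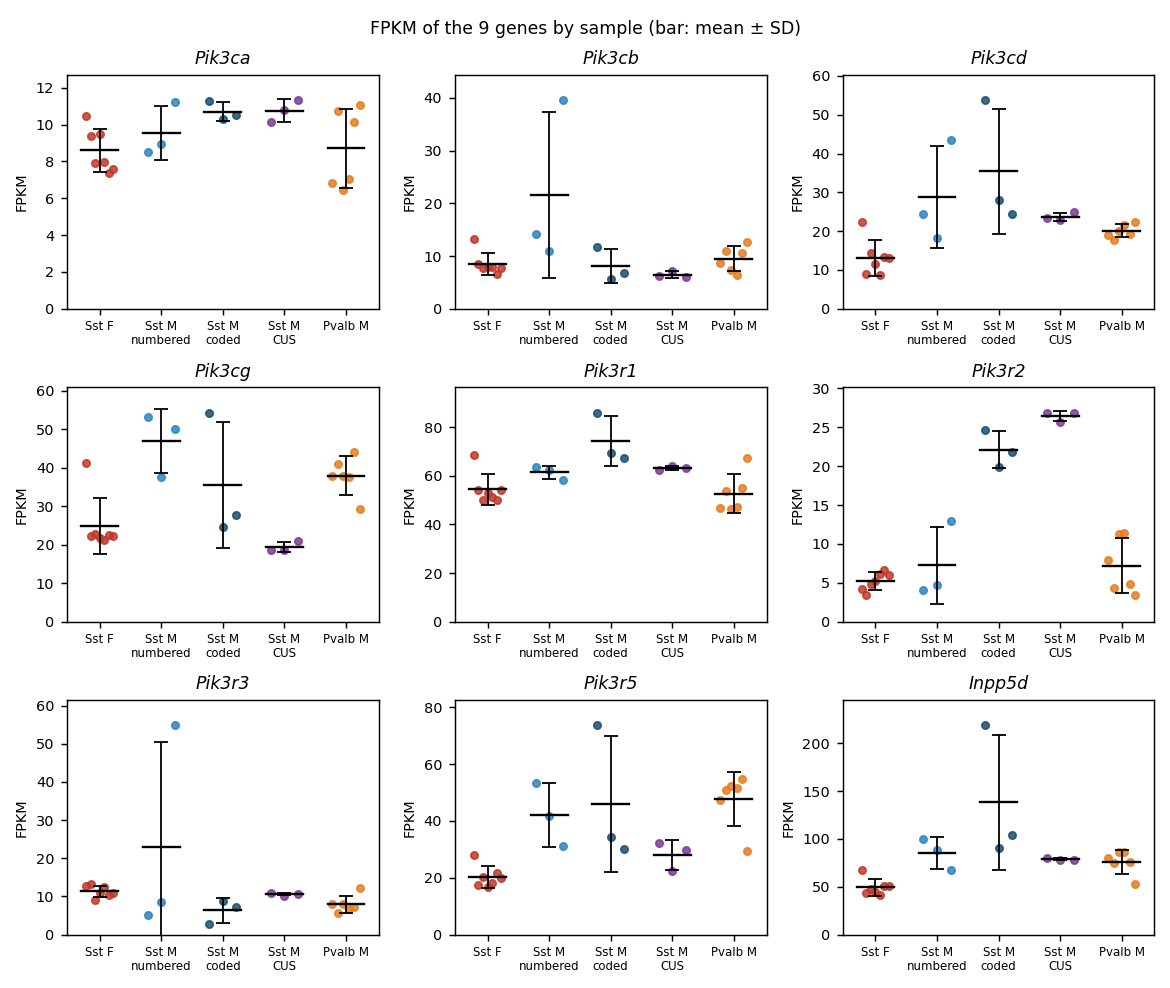
FPKM of each of the 9 genes (vertical axes, linear from 0) in 22 samples, grouped as Sst females (F), Sst males (M) with numbered titles, with coded titles and after CUS, and Pvalb males. Each point is a sample and the lines are the mean and SD, the lower Pik3r3 bar of numbered males being cut at 0. Pik3r2 is at 19.9 to 26.9 FPKM in the coded and CUS samples and at most 12.9 FPKM elsewhere.

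Sex was examined first, with the 7 Sst female controls compared with the 6 male control samples. Pik3r5, Inpp5d and Pik3cd were lower in females, and none of the other 6 members passed the test (limma on log2(FPKM + 1), two-sided, Benjamini-Hochberg over all genes tested, 0.05). Of all genes, 11.7% passed and 5.44% were lower in females, so 3 of 9 lower is above that share, although the members vary together and are not independent. Their median log2 difference, female minus male, was -0.68, against 0.07 over all genes.

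Pik3r5 encodes p101, the adaptor that couples p110γ to G proteins. It lay at 16.8, 19.8 and 27.9 FPKM (lowest, median and highest) in females and at 30.0, 37.9 and 73.6 FPKM in males. No female sample reached the lowest male. The groups did not overlap, in either direction, for 4.19% of all genes. The log2 difference was -1.02 (SE 0.21, limma adjusted p = 0.0135).

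Inpp5d lay at 40.8, 48.1 and 67.8 FPKM in females and at 67.2, 95.3 and 218.6 FPKM in males. The groups overlapped through 1 sample each, SST-F (67.8 FPKM) and the averaged SST0-M and SST1-M (67.2 FPKM). The log2 difference was -1.07 (SE 0.24, limma adjusted p = 0.0161). Pik3cd, the p110δ subunit of leukocytes, lay at 8.66, 13.2 and 22.5 FPKM in females and at 18.4, 26.3 and 53.9 FPKM in males. SST-F was the only female above the lowest male, SST4-M. Its log2 difference was -1.19 (SE 0.26, limma adjusted p = 0.0161).

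Pik3cg, the catalytic partner of Pik3r5, lay at 21.2, 22.4 and 41.3 FPKM in females and at 24.6, 43.8 and 54.3 FPKM in males. Its log2 difference of -0.68 missed the threshold (SE 0.23, limma adjusted p = 0.0624), and 6 of the 7 females were below every male. Without SST-F, the one exception, the difference was -0.80 (limma adjusted p = 0.0231), and without the male SST040241L it was -0.81 (limma adjusted p = 0.041). Pik3r2 differed by -1.10 (SE 0.37, limma adjusted p = 0.0626) over both kinds of male title. Pik3r2 passed without SST3-M (-1.37, limma adjusted p = 0.0207) and without SST4-M (-1.34, limma adjusted p = 0.0193). In these 2 males Pik3r2, at 4.13 and 4.71 FPKM, lay inside the female range of 3.49 to 6.68 FPKM. Against these 2 males alone, the numbered males less the averaged pair, Pik3r2 was not lower in females (0.18). Pik3ca (-0.22), Pik3cb (-0.48), Pik3r1 (-0.31) and Pik3r3 (0.29) had limma adjusted p between 0.176 and 0.686.

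The microglia markers were lower in females in the median, but their sum did not follow these genes in every sample. The 11-marker sum was 2643 to 4708 FPKM in females and 2981 to 8908 FPKM in males, and the median log2 difference of the 11 markers was -0.58, with 1 of 11 lower at the threshold and none higher. In the males SST040241L and SST04241LL the sums of 2981 and 3280 FPKM lay inside the female range. Their Inpp5d, at 90.9 and 104.5 FPKM, was above every female. The other males had sums of 5278 FPKM and above. With the mean log2 level of these 11 markers as a covariate, added after the data were seen, none of the 3 calls was kept. The estimates were -0.62 for Pik3r5, -0.84 for Inpp5d and -0.94 for Pik3cd (limma adjusted p = 0.0649, 0.0718 and 0.0772), and -0.21 for Pik3cg (limma adjusted p = 0.492). Pik3r2 alone passed in that fit (-1.59, limma adjusted p = 0.0416). The covariate also carries the kind of male title: 1 of the 11 markers was lower in coded than in numbered males and 0 higher. Tyrobp was at 60.6 to 156 FPKM in coded males and at 776 to 1517 FPKM in numbered males.

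**Figure D2:**
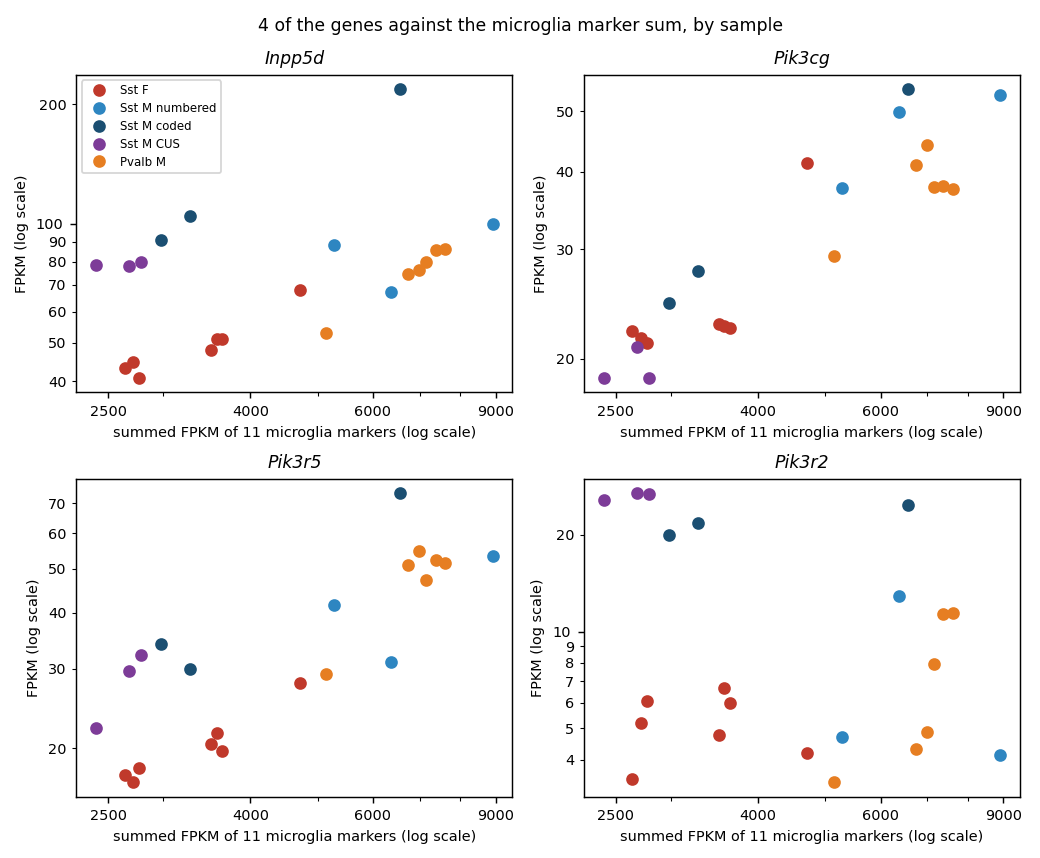
FPKM of Inpp5d, Pik3cg, Pik3r5 and Pik3r2 (vertical, log scale) against the summed FPKM of 11 microglia markers (horizontal, log scale), 1 point per sample, coloured by group. Pik3cg is lowest, at 18.6 to 20.9 FPKM, in the 3 CUS samples, whose sums are 2403 to 2788 FPKM, and Pik3r2 is highest in the CUS and coded samples whether their sum is 2403 or 6563 FPKM.

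The male samples were then taken by title kind. Against the 3 numbered males, 3 members were lower in females at the threshold, where 3.41% of all genes passed and 1.66% were lower: Pik3r5 (-1.001, limma adjusted p = 0.0271), Pik3cg (-0.91, limma adjusted p = 0.0453) and Inpp5d (-0.77, limma adjusted p = 0.0499). Pik3cd was at -1.04 (limma adjusted p = 0.0749). Without the averaged SST0-M and SST1-M, 2 members passed: Pik3r5 (-1.20) and Inpp5d (-0.92) were kept, Pik3cg was at -0.86 (limma adjusted p = 0.0607) and Pik3cd at -0.70 (limma adjusted p = 0.175). Against the 3 coded males, 5 members were lower and 1 was higher, but 41.5% of all genes passed there and 19.1% were lower. Pik3r2 was the most changed (-1.92, limma adjusted p = 1.54e-05), followed by Inpp5d (-1.36), Pik3cd (-1.33), Pik3r5 (-1.04) and Pik3r1 (-0.44), and Pik3r3 was higher in females (0.86, limma adjusted p = 0.0184). Pik3r5 and Inpp5d were thus lower in females against either kind of male. Both comparisons use the same 7 females. No female had a coded title, so against coded males sex and the kind of title cannot be told apart. The numbered males match the females in the kind of title, and the comparison with all males takes in both kinds. Numbered males did not match females in the 11-marker microglia sum, 5278 to 8908 FPKM against 2643 to 4708 FPKM in females. Of the 11 markers, 4 were lower in females than in numbered males and 0 higher (median log2 difference -0.92). The part of these markers in the calls against numbered males was not tested.

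**Figure D3:**
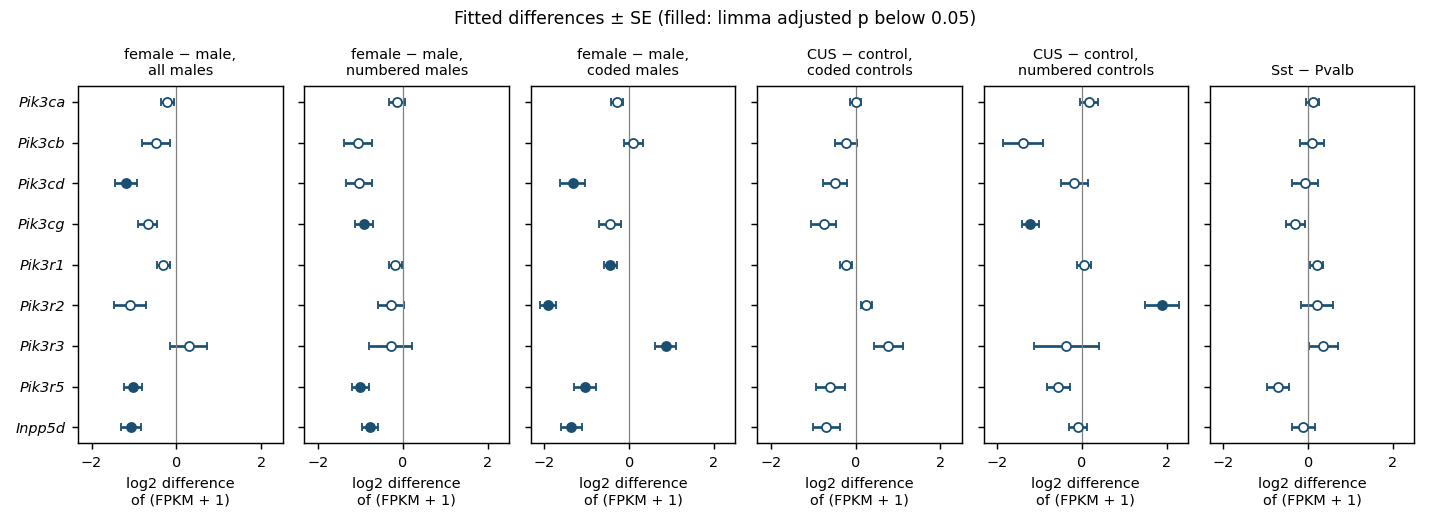
Fitted log2 differences of (FPKM + 1) for the 9 genes (horizontal axes, bars are SE), in 6 comparisons named above the panels. Filled points have a limma adjusted p below 0.05. Pik3r5 and Inpp5d are filled in all 3 female against male panels, and no member is filled in the panel of Sst against Pvalb or in that of CUS against coded controls.

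Set directly against each other, coded and numbered male controls gave 0 of 9 members past the threshold (1 of 9 at an unadjusted p under 0.05), with 4.11% of all genes passing. The member at an unadjusted p under 0.05 was Pik3r2. It was at 4.13, 4.71 and 12.9 FPKM in numbered males and at 19.9, 21.8 and 24.7 FPKM in coded males. The groups did not overlap for Pik3r2 or for Pik3r1, as for 33.5% of all genes in samples of this size. The log2 difference, coded minus numbered, was 1.64 (SE 0.41, limma adjusted p = 0.0709). Without the averaged SST0-M and SST1-M it was 2.09 (limma adjusted p = 0.00395). The small nucleolar RNA share given above also differed between the kinds of title, and its part in this value was not tested. Among numbered males, SST3-M had Pik3r2 at 4.13 FPKM with a share of 3.79%, and SST4-M had 4.71 FPKM with a share of 5.07%. The averaged pair had 12.9 FPKM with shares of 3.38% and 3.49%. These shares all lie far below those of coded libraries, so they cannot decide the question.

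Chronic stress was examined in Sst males, 3 CUS samples against the 6 male control samples. No member passed the test (0 of 9, with 1 of 9 at an unadjusted p under 0.05), and 0.00698% of all genes did, 1 of 14319. Pik3cg was at 18.6, 18.7 and 20.9 FPKM after CUS, below every male control (24.6 FPKM and above). The log2 difference, CUS minus control, was -0.99 (SE 0.30, limma adjusted p = 0.641). Pik3r2 was at 25.7, 26.8 and 26.9 FPKM after CUS, above every male control, with a log2 difference of 1.07 (SE 0.53, limma adjusted p = 0.641). These 2 members without overlap compare with 7.1% of all genes.

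The CUS samples all had coded titles, so the 3 coded controls match them in the kind of title. All 3 CUS titles begin with SS04031, and among the coded controls only that of SS04031R does. Stress and this part of the title are therefore told apart by SS04031R alone. Against the 3 coded controls no member passed (0 of 9, with Pik3cg at an unadjusted limma p of 0.0341), and 0.00705% of all genes did. Pik3cg in the coded controls was at 24.6, 27.6 and 54.3 FPKM, a log2 difference of -0.76 (SE 0.29, limma adjusted p = 0.647). Pik3r2 differed by 0.25 (SE 0.13, limma adjusted p = 0.647), against 1.89 (limma adjusted p = 0.0252) when the controls were the numbered males. CUS and coded controls did not overlap for 5 members (Pik3cg, Pik3r1, Pik3r2, Pik3r3 and Inpp5d), as for 18.7% of all genes. Inpp5d was at 78.3, 78.4 and 79.8 FPKM after CUS and at 90.9, 104.5 and 218.6 FPKM in the coded controls, a log2 difference of -0.69 (SE 0.32, limma adjusted p = 0.647). Pik3r3 was at 10.2, 10.6 and 10.8 FPKM after CUS and at 2.76, 7.33 and 8.85 FPKM in the coded controls, a log2 difference of 0.77 (SE 0.35, limma adjusted p = 0.647). All 3 of these sizes rest in part on SS04031R: without it the differences were -0.41 for Pik3cg, -0.30 for Inpp5d and 0.35 for Pik3r3 (limma adjusted p = 0.25, 0.3 and 0.414). Without SS04031R no coded control shares the start of the CUS titles, so stress and that part of the title cannot be told apart.

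Against numbered controls, 2 members passed, Pik3r2 and Pik3cg (-1.22, limma adjusted p = 0.0133), where 16.1% of all genes did. In that comparison stress and the kind of title cannot be told apart. The 11-marker microglia sum after CUS (2403 to 2788 FPKM) was below that of every male control, and with the mean log2 level of these markers as a covariate Pik3cg differed by -0.33 (limma adjusted p = 1) from all 6 controls. The marker Tyrobp, at 59.96 to 71.05 FPKM after CUS, followed the kind of title among male controls, as given above. The covariate therefore cannot separate microglia content from the kind of title here. Oligodendrocyte markers summed to 1371 to 1758 FPKM after CUS and to 272 to 1189 FPKM in male controls. Endothelial markers summed to 127 to 203 FPKM after CUS and to 18.3 to 111.0 FPKM in male controls, with a median log2 difference of 1.77 over 6 markers, none of which passed. The part of these cell types in the CUS values was not tested beyond the covariate.

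Sst and Pvalb control samples were compared by line (13 against 6 samples). The Sst transcript was at 0, 5.06 and 49.3 FPKM (lowest, median and highest) in Sst samples and at 12.45, 24.95 and 30.5 FPKM in Pvalb samples. The Pvalb transcript was at most 1.93 FPKM in Sst samples and at 0.89 to 5.07 FPKM in Pvalb samples. Of 10 interneuron markers, 2 were lower in Sst samples and 0 higher, so the lines cannot be read as the 2 interneuron subtypes. No member passed (0 of 9, with 1 of 9 at an unadjusted p under 0.05), where 7.8% of all genes did. Pik3r5 was at 16.8, 27.9 and 73.6 FPKM in Sst samples. Among Pvalb samples it was at 29.3 FPKM in the averaged PV0-M and PV2-M, and at 47.3 to 54.8 FPKM in the other 5. The log2 difference, Sst minus Pvalb, was -0.71 (SE 0.27, limma adjusted p = 0.0998). It passed with the 10 numbered Sst samples alone (-0.88, limma adjusted p = 0.0253, where 10.2% of all genes passed), without the averaged PV0-M and PV2-M (-0.84, limma adjusted p = 0.0469) and without SS04031R (-0.82, limma adjusted p = 0.0268). All 7 Sst females lay below all 6 Pvalb samples for Pik3r5, and the Sst males overlapped them: with male Sst samples alone the difference was -0.16 (limma adjusted p = 0.724). With the 11 microglia markers as a covariate it was 0.006 (limma adjusted p = 0.992). Markers of other cell types moved with the line too: 5 of 6 endothelial markers were higher in Sst samples (median log2 difference 1.86) and 3 of 5 excitatory neuron markers were lower (-0.88), and their part in the members' values was not tested. The other 8 members had log2 differences from -0.30 for Pik3cg to 0.36 for Pik3r3.

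Pvalb samples were set apart by Xist, and many genes differed between the sets, members among them. PV1-M, PV4-M and PV5-M, the libraries with high Xist, had Pik3ca at 6.81, 6.45 and 7.06 FPKM. The other 3 Pvalb samples had Pik3ca at 10.1 to 11.1 FPKM. Pik3r2 went the other way, at 7.92, 11.3 and 11.5 FPKM in the libraries with high Xist and at 3.41 to 4.87 FPKM in the others. Pik3cb (6.45 to 8.77 against 10.5 to 12.7 FPKM) and Pik3r1 (46.3 to 47.3 against 53.7 to 67.3 FPKM) were lower in the libraries with high Xist, and Inpp5d (80.0 to 86.2 against 53.1 to 76.2 FPKM) was higher. In all, 5 of 9 members did not overlap between these sets of 3 and 3 samples, which were chosen by Xist, beside 41.9% of all genes, and no test was made.

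The mix of catalytic subunits is given as shares, which are descriptions with no test. Pik3cg made up 42.6% to 47.3% of the summed FPKM of the 4 catalytic genes in Sst females, 34.6% to 53.0% in numbered males, 35.8% to 41.4% in coded males, 31.4% to 33.1% after CUS and 38.8% to 52.8% in Pvalb males. Pik3cd made up 18.2% to 27.3% in Sst females, 24.2% to 30.1% in numbered males, 22.1% to 29.8% in Pvalb males, 35.1% to 41.1% in coded males and 38.3% to 40.2% after CUS. For both genes, females overlapped numbered males and Pvalb males but not coded males or CUS samples. Pik3cd was the largest catalytic transcript in all 3 CUS samples, and Pik3cg the largest in every Sst female, numbered male and Pvalb sample. Pik3ca and Pik3cb, the ubiquitous subunits, made up 7.77% to 19.2% and 8.16% to 27.5% over the 22 samples.

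**Figure D4:**
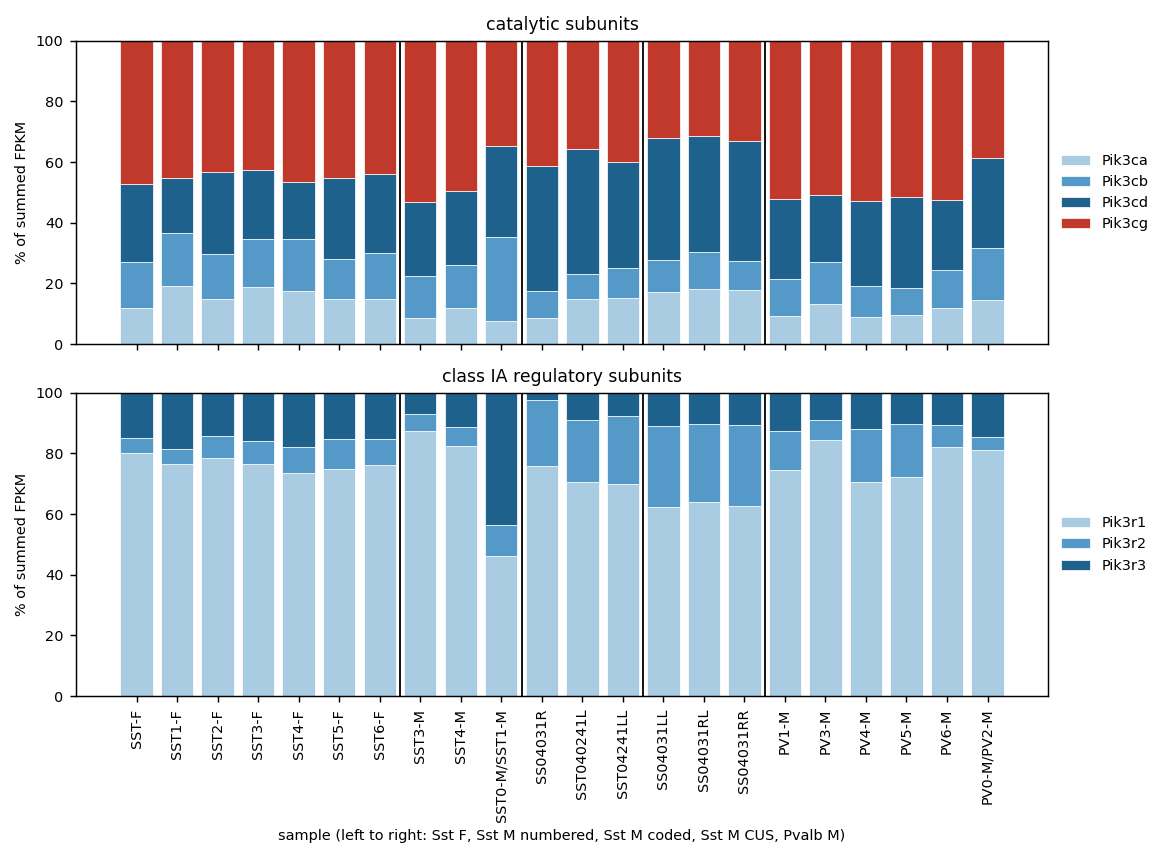
Share of the summed FPKM (vertical, percent) taken by each catalytic subunit (top) and each class IA regulatory subunit (bottom) in every sample, with black lines between groups. The Pik3r2 band is 20.3% to 26.8% in the coded and CUS samples, and the averaged SST0-M and SST1-M stands apart with Pik3r3 at 43.5%.

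Among class IA regulatory subunits Pik3r1 was the largest in every sample, at 46.3% to 87.2% of their sum. Pik3r2 made up 4.92% to 9.97% in Sst females, 5.66% to 10.2% in numbered males, 20.3% to 22.6% in coded males and 25.7% to 26.8% after CUS. Pik3r3 made up 14.1% to 18.5% in Sst females and 10.2% to 10.8% after CUS. The summed class IA regulatory FPKM exceeded the summed class IA catalytic FPKM in every sample, by a ratio of 1.34 to 2.86. This ratio was 2.40 ± 0.33 (SD, n = 7) in Sst females and 1.78 ± 0.12 (SD, n = 6) in Pvalb males. It was 1.62 ± 0.32 (SD, n = 3) in numbered males, 2.01 ± 0.46 (SD, n = 3) in coded males and 2.45 ± 0.06 (SD, n = 3) after CUS.

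The class IB partners were not held at a fixed ratio. Pik3r5 per Pik3cg was 0.83 ± 0.09 (SD, n = 7) in Sst females, 1.25 ± 0.14 (SD, n = 6) in Pvalb males, 1.28 ± 0.17 (SD, n = 3) in coded males and 1.45 ± 0.27 (SD, n = 3) in the CUS samples. Every Sst female was at or below 0.958, and every coded, CUS and Pvalb sample was at or above 1.00. Numbered males spanned both, from 0.624 in the averaged pair to 1.11. Pik3r6, which encodes the alternative adaptor p84, was lower than Pik3r5 in every sample, by a ratio of 1.50 to 17.9.

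Other genes of the pathway were read from a list of 37, of which 36 were tested. In the sex comparison 4 were higher and 4 lower in females, 8 of 36 against 11.7% of all genes. The 3 with the largest falls act downstream of PI3K or bind its lipids: Plcg2, a phospholipase (9.77 ± 1.01 FPKM in 7 females, 34.2 ± 23.2 in 6 males, log2 difference -1.44, limma adjusted p = 0.0215), Btk, a kinase recruited by the PI3K product (-1.32, limma adjusted p = 0.0413), and Plekha2, a lipid-binding adaptor (-1.08, limma adjusted p = 0.0339). The 3 with the largest rises were Ocrl, an inositol 5-phosphatase (0.79, limma adjusted p = 0.0332), Irs1, a docking protein of insulin receptors (0.77, limma adjusted p = 0.0357), and Gsk3a, a kinase that Akt inhibits (0.69, limma adjusted p = 0.0484). The other 2, Pik3r6 (-1.01) and the receptor gene Igf1r (0.52), are named outside the rule. Igf1r was the one of these 8 whose groups did not overlap. The calls depended on the kind of male title. Against numbered males alone 1 was higher (Igf1r) and 1 lower (Gab2, a docking protein), 2 of 36 beside 3.41% of all genes, and 0 of 14 downstream effectors passed (2 of 14 at an unadjusted p under 0.05), so the other 7 lost their calls. Against coded males alone 8 were higher and 7 lower, 15 of 36 beside 41.5% of all genes.

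Between lines, 3 of 36 pathway genes passed, against 7.8% of all genes. Synj2, an inositol phosphatase of membrane traffic, was higher in Sst samples (0.83, limma adjusted p = 0.0201), while Gsk3a (-0.85, limma adjusted p = 0.0234) and Synj1 (-0.41, limma adjusted p = 0.0418) were lower. After CUS no pathway gene passed against all 6 controls (0 of 36, with 4 of 36 at an unadjusted p under 0.05) or against the coded controls (0 of 36, with 5 of 36). Between title kinds, Akt1, the central kinase downstream, was the 1 gene of 36 that passed. It was at 14.1 ± 5.11 FPKM in 3 numbered males and 47.5 ± 9.34 FPKM in 3 coded males (log2 difference 1.73, limma adjusted p = 0.0385), the sign of the Pik3r2 difference.

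The genes nearest to each member in pattern were found by the SD, over the 22 samples, of the difference in log2(FPKM + 1), among genes with a mean above 5 FPKM. For Pik3cg they were Runx1, a blood-lineage transcription factor (SD 0.13), and Gcnt1 (SD 0.17). Nfya, Cd33 and the microglia marker Aif1 came next, in that order (SD 0.18 each). For Pik3r5 they were Naip2, an inflammasome receptor (SD 0.19), and Trem2, a microglia receptor (SD 0.20). For Inpp5d they were Epb4.1l2 and Srgap2 (SD 0.16 each), and for Pik3cd Liph and Rcsd1 (SD 0.21 and 0.22). Pik3r1 was nearest to the RNA helicase Ddx6 (SD 0.10) and to Zeb2 (SD 0.12). For Pik3r2 they were Akap8l (SD 0.28) and Map7d1 (SD 0.30). The SD of the gene itself was 0.97 for Pik3r2 and 0.22 for Pik3r1, so closeness cannot be compared between members by these SDs. The samples share groups and library kinds, so these values are descriptions.

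Some members share sequence with other genes. On GRCm38.p6 the RefSeq gene Pik3ca (chr3:32397065-32466112) overlaps Kcnmb3, Pik3cd (chr4:149649168-149702566) contains the microRNA gene Mir7023, and Inpp5d (chr1:87620312-87720510) overlaps the long noncoding RNA Gm33470. Pseudogenes overlap Pik3cb (Gm2773) and Pik3r3 (Gm18535). Whether counting used strand is not given, so reads of overlapping genes may have been counted with these members, while Pik3cg, Pik3r1, Pik3r2 and Pik3r5 had no overlapping RefSeq gene.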

How the data were processed

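The authors deposited 1 table of FPKM per gene symbol for 24 of the 30 labelled libraries. The other 6 (1 Pvalb female control, 3 Sst female CUS and 2 Pvalb female CUS) were not analysed here. The study's methods name mm9 and TopHat2 beside trimming and then mm10, HISAT2 and StringTie, and the submitters' processing notes name TopHat2, Cufflinks, Cuffdiff and mm10. Whether batch correction with ComBat entered the deposited FPKM is not stated. Read depth is unknown, so no counting interval is given, and a value of 0 can be a failed estimate. Steps in the low values gave a relative depth of 0.459 to 2.47, approximate because only 8.23% to 25.9% of low genes lay at the step.

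Near-identical libraries (SD of log2 ratios above 5 FPKM under 10% of the next closest pair) were averaged. Values were transformed to log2(FPKM + 1), and genes with a mean above 0.4 FPKM were tested with limma 3.58.1 (lmFit and eBayes with trend and robust, R 4.3.3), two-sided, and p-values were adjusted by Benjamini-Hochberg across the tested genes, with a threshold of 0.05. Counts were not used. Scripts were tested on simulated data. Groups came from the titles and labels, and equal replicate numbers did not pair samples (correlations of deviations -0.0469 to 0.073). Members and lists were chosen with earlier results of these data known. All 9 members were named in every comparison. Of the pathway list, the 3 largest rises and falls past the threshold were named, and of the marker lists the sums. Of the microglia list 1 gene is not reported here, so sums and covariate use the other 11, a choice made after the data were seen, and the planned covariate over the full list is not given. Alternatives were the pseudocount, filter, scaling, averaging, title kind, covariate, replicate block and leaving out each sample.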

Additional observations from a re-analysis of the deposited data

Results flagged for a closer look

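A member was listed here where 1 sample stood apart within a group of 4 to 10 samples, its gap to the nearest sample exceeding Dixon's 95% critical value. This held for 11 of 27 groups, where chance gives about 1 in 20, and the members are not independent. Among Sst females SST-F stood high for 5 members: Pik3cb at 13.2 FPKM, Pik3cd at 22.5 FPKM, Pik3cg at 41.3 FPKM, Pik3r1 at 68.5 FPKM and Inpp5d at 67.8 FPKM. The same library had the highest 11-marker microglia sum (4708 FPKM) and interneuron sum (73.4 FPKM) among females. Among Sst male controls the averaged SST0-M and SST1-M stood high for Pik3cb (39.6 FPKM) and Pik3r3 (54.8 FPKM), and SS04031R stood high for Inpp5d (218.6 FPKM). Among Pvalb males the averaged PV0-M and PV2-M stood high for Pik3r3 (12.2 FPKM) and low for Pik3r5 (29.3 FPKM) and Inpp5d (53.1 FPKM). The part of cell makeup in these values was not tested.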

How the results depend on the processing

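The number of members past the threshold moved as follows. In the sex comparison, 3 of 9 passed, against 6 with coded male controls alone, 2 with numbered male controls less the averaged pair, 5 without averaging the near-identical libraries, 1 with the 11 microglia markers as a covariate, and 3 to 4 when 1 sample was left out. In the comparison of lines, 0 passed, against 1 with numbered Sst controls alone, 1 without the averaged SST0-M and SST1-M and SS04031R, and 0 to 1 with 1 sample left out. In the CUS comparison, 0 passed, against 2 with numbered male controls alone. In the comparison of title kinds, 0 passed, against 3 without the averaged pair and SS04031R, 1 after quantile normalization and 0 to 1 with 1 sample left out.

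Over all genes, the sex comparison had 1699 past the threshold, against 6032 with coded and 493 with numbered male controls alone, 899 with numbered male controls less the averaged pair, 947 with the 11 microglia markers as a covariate, and 667 to 3552 with 1 sample left out (667 without SS04031R, 3552 without the averaged pair). The comparison of lines had 1133, against 2436 without the averaged pair and SS04031R, 491 with male Sst controls alone, 88 with the 11 microglia markers as a covariate, 14 without the 3 Pvalb libraries with high Xist, and 389 to 2130 with 1 sample left out (389 without PV5-M, 2130 without the averaged PV0-M and PV2-M). The CUS comparison had 1, against 16 with coded controls less SS04031R, 2 without the averaged pair and SS04031R, 6 with controls of both sexes, 3 without averaging, 3 with no filter on low values, 2309 with numbered male controls alone, and 1 to 3 with 1 sample left out. The comparison of title kinds had 585, against 4377 without the averaged pair and SS04031R, 1769 without averaging, 381 with no filter, 1110 after quantile normalization, and 54 to 1962 with 1 sample left out (54 without SST040241L, 1962 without the averaged pair).

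Equal replicate numbers did not pair the samples. The replicate block, fitted on 3 numbers shared by the groups, left 0 members and 11 genes past the threshold in the sex comparison, and 0 members and 10 genes in the comparison of lines, with 3 samples a group.

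No member called in a comparison changed direction in it under any alternative. Members that were not called changed sign as follows, in log2 differences. In the sex comparison these were with coded male controls alone (Pik3cb 0.10), with numbered male controls less the averaged pair (Pik3r2 0.18), with the 11 microglia markers as a covariate (Pik3r3 -0.0078), without averaging the near-identical libraries (Pik3r3 -0.066), with numbered male controls alone (Pik3r3 -0.28), with the replicate block (Pik3r3 -0.18). In the comparison of lines these were with the 11 microglia markers as a covariate (Inpp5d 0.49, Pik3cd 0.51, Pik3cg 0.30, Pik3r3 -0.011, Pik3r5 0.006), without the 3 Pvalb libraries with high Xist (Inpp5d 0.046, Pik3ca -0.19, Pik3cb -0.18), with male Sst controls alone (Inpp5d 0.46, Pik3cd 0.56, Pik3cg 0.062), with the replicate block (Inpp5d 0.070, Pik3cd 0.48, Pik3cg 0.25, Pik3r2 -0.17), without the averaged pair and SS04031R (Pik3cb -0.10, Pik3r2 -0.0062), with numbered Sst controls alone (Pik3r2 -0.22). In the CUS comparison these were with controls of both sexes (Inpp5d 0.18, Pik3cd 0.31, Pik3r1 0.074), with the 11 microglia markers as a covariate (Pik3ca -0.015, Pik3r3 -0.28, Pik3r5 0.0016), with coded controls less SS04031R (Pik3cb 0.041), without the averaged pair and SS04031R (Pik3cd 0.0074), with numbered male controls alone (Pik3r1 0.040, Pik3r3 -0.37), after quantile normalization (Pik3r1 0.099), without averaging the near-identical libraries (Pik3r3 -0.15). In the comparison of title kinds these were without the averaged pair and SS04031R (Pik3r3 0.23, Pik3r5 -0.55). With 1 sample left out, the log2 difference ranged for Pik3cb from -0.069 to 0.17 and Pik3cd from -0.20 to 0.0092 in the comparison of lines, for Pik3r3 from -0.079 to 0.70 in the CUS comparison, for Pik3cd from -0.043 to 0.63 and Pik3r5 from -0.35 to 0.28 in the comparison of title kinds. The causes were not tested. Without counts, the depth behind the low values is unknown.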
